A study of Mus musculus with 37 samples.

Results

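The respiratory chain genes are the protein-coding genes for subunits and assembly factors of the mitochondrial complexes I to V. They were chosen by name from the GENCODE M21 annotation: symbols that begin with mt-, Nduf, Sdha to Sdhd, Uqcr, Cox4 to Cox8 or Atp5. The rule found 111 of the 55536 annotated genes, 13 encoded by mitochondrial DNA and 98 by nuclear DNA. The mitochondrial DNA members were 7 subunits of complex I, 1 of complex III, 3 of complex IV and 2 of complex V. The nuclear members were 46 genes of complex I, 8 of complex II, 8 of complex III, 18 of complex IV and 18 of complex V, among them 12 assembly factors of complexes I and II. A rule on names also takes Ndufa4, named for complex I and now counted with complex IV, and Cox7a2l and Atp5s, which are not core subunits.

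The libraries came from total RNA of the liver or the brain cortex of 10-month-old mice of 4 genotypes. The study asked how expression changes with deficiency of TMEM106B, a membrane protein of lysosomes, and with the Q331K form of TDP-43, a protein that binds RNA. The groups were WT mice, TDP-43Q331K mice (knock-in of that form of TDP-43), TMEM106B-/- mice (deficient in TMEM106B) and TMEM106B-/-TDP-43Q331K, called the combined genotype here, with no further allele or treatment named. Liver had 4 libraries per genotype, and cortex had 5 WT, 6 TDP-43Q331K, 5 TMEM106B-/- and 5 combined libraries. Whether a library is 1 animal, how many knock-in copies the mice carried and how either allele was made is not in the labels, so the p-values measure the spread between these libraries, which may in part be technical.

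Oxidative phosphorylation passes electrons from NADH through complex I, or from succinate through complex II, by way of coenzyme Q to complex III, and on through cytochrome c to complex IV, where oxygen is reduced. Complexes I, III and IV pump protons across the inner mitochondrial membrane, and complex V, the ATP synthase, uses their return to make ATP. Mitochondrial DNA is transcribed from both strands into long precursors that are cut at the tRNAs between the genes, and its few subunits must be joined to nuclear-encoded subunits imported from the cytosol. Liver and brain both depend on this pathway, liver for its biosynthetic work and fuel handling and brain for ion pumping at synapses.

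Liver libraries held 50.5 to 74.1 M counts and cortex libraries 28.8 to 46.3 M. The tissues matched their labels. Summed hepatocyte markers lay at 96802 to 139037 CPM (counts per 1 M) in liver and 0.56 to 14.5 CPM in cortex, and summed neuron markers at 6159 to 7627 CPM in cortex and 5.53 to 11.7 CPM in liver. Tmem106b RNA was not lower in the libraries labelled TMEM106B-/-: its log2 difference from WT was 0.26 ± 0.15 (SE, adjusted p = 0.448) in liver and -0.03 (adjusted p = 0.774) in cortex, and the labels do not say which part of the gene was altered, so genotypes are given as labelled. Libraries of the tissues also differed in composition. The 7SK RNA Rn7sk lay at 1.92 to 10.9 CPM in liver and 12054 to 22395 CPM in cortex, and the mitochondrial ribosomal RNAs took 0.533% to 1.19% of liver counts and at most 0.000782% of cortex counts. Levels are therefore given per tissue and no test was made between tissues.

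In liver 6 of the 13 mitochondrial DNA members lay below 1 CPM per kb. Sequences are shown first because 5 of these 6 share nearly all of theirs with copies in the nuclear genome. The mouse nuclear genome holds near-identical copies of stretches of mitochondrial DNA on chromosome 1 (24611535 to 24616197) and chromosome 2 (22587291 to 22590533, GRCm38), annotated as pseudogenes, and a read that matches both places equally cannot be assigned to either. The pseudogene Gm28661 matched mt-Co2 in all 681 of its bases. The older copy on chromosome 2, Gm13341, was 95.9% identical, and a stretch of 60 bases shows how a few differences separate it from the gene. The stretch is chrM:7457-7516 (plus strand) in mt-Co2 and chr2:22587471-22587530 (minus strand) in Gm13341, and capitals mark the 6 bases that differ.
mt-Co2: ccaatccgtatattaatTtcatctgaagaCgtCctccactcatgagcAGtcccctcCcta
Gm13341: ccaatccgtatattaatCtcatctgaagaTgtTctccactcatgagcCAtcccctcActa
The same stretch in Gm28661, chr1:24615062-24615121 (minus strand), held no difference from mt-Co2, so a read within it fits both.
Gm28661: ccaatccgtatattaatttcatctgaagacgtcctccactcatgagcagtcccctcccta
A second pair shows a gene that stayed countable. mt-Nd2 at chrM:4580-4639 (plus strand) differed from its copy Gm13339 at chr2:22590336-22590395 (minus strand) at 4 bases, in capitals, and Gm13339 was 96.7% identical over its 510 bases.
mt-Nd2: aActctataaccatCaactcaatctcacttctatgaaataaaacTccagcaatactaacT
Gm13339: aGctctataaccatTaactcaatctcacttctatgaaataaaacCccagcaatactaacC

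The mitochondrial DNA members with the lowest levels were those with the most shared sequence, with 1 exception. Of all possible 100-base windows of a gene, 99.9% of mt-Co3, 99.5% of mt-Co2, 99.5% of mt-Atp6, 98.5% of mt-Nd4l and 97.6% of mt-Nd3 were also found in another annotated gene. These 5 genes lay at 0.07 to 0.90 CPM per kb in WT liver and at up to 48.8 CPM per kb in WT cortex. In contrast, mt-Co1 (30.8% of windows shared), mt-Nd4 (60.8%), mt-Nd2 (3.19%) and the unshared mt-Nd1, mt-Nd5 and mt-Cytb lay at 1317 to 7716 CPM per kb in liver and 2062 to 10069 CPM per kb in cortex. The exception was mt-Atp8, a small ATP synthase subunit, at 0.09 and 1.53 CPM per kb. None of its windows matched an annotated gene, but it lies opposite a gap of 233 bases (24614652 to 24614884) between the annotated copies on chromosome 1. mt-Nd6, with no shared window, lay between the groups at 88.7 ± 14.0 CPM per kb (SD, n = 4) in liver and 131 ± 5.0 (SD, n = 5) in cortex. How the submitters' counting treated reads with several matches is not given in the sources used here, and its part in these levels was not tested.

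**Figure D1:**
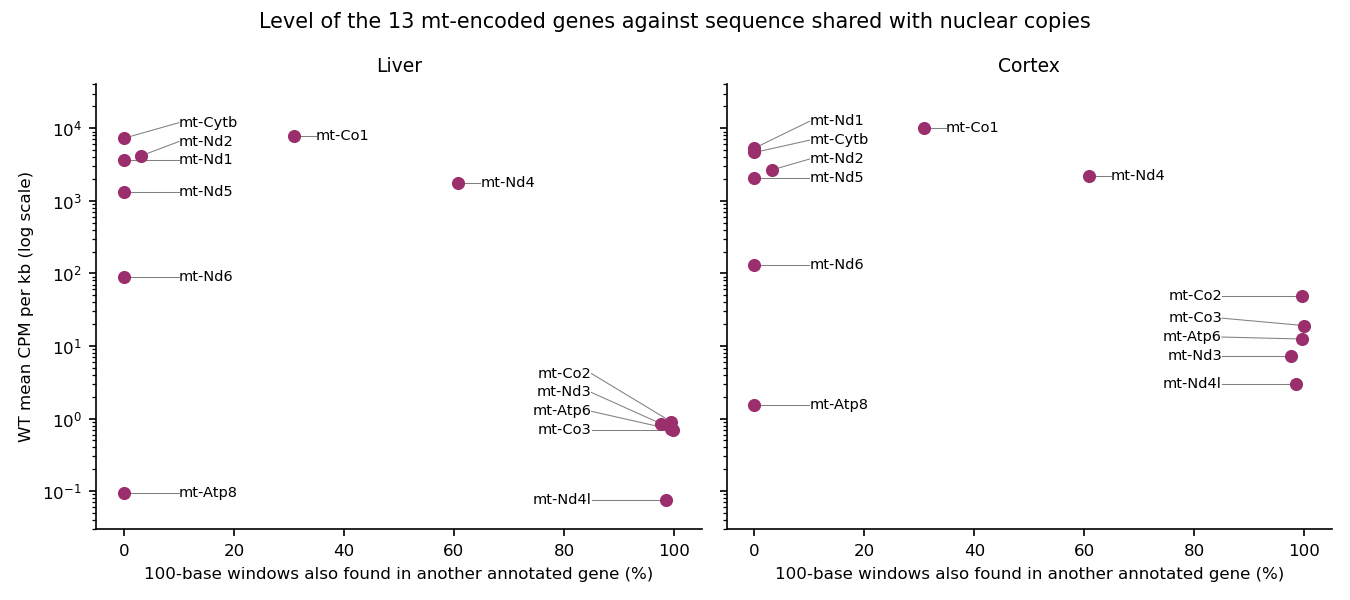
Mean level of each mitochondrial DNA member in WT libraries (CPM per kb, log scale) against the percent of its 100-base windows also found in another annotated gene, for liver and cortex. The 5 genes with 97.6% or more of their windows shared sit below 1 CPM per kb in liver and below 50 in cortex, and mt-Atp8 is low with no window shared.

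Among the nuclear members, the levels per length in WT livers had medians of 41.7 CPM per kb for complex I, 34.4 for complex II, 131 for complex III, 56.3 for complex IV and 63.7 for complex V. The WT cortex medians were 18.2, 11.97, 39.0, 32.5 and 18.1 CPM per kb in the same order. Complex IV subunits that exist in a general and a tissue-restricted form were mostly of the general form in both tissues. Cox4i1 lay at 417 ± 32.6 CPM per kb (SD, n = 4) in WT liver and 88.0 ± 3.40 (SD, n = 5) in WT cortex, against 0.09 and 0.80 for Cox4i2, the form of lung and low oxygen. Cox6a1 lay at 382 and 108 CPM per kb, against 0.02 and 6.50 for Cox6a2, the form of heart and muscle. Cox6a2 was thus listed near 0 in liver and was measurable in cortex, where its lowest library had 4.15 CPM per kb. Cox7a2 lay at 110 and 65.9 CPM per kb, against 3.33 and 1.19 for the muscle form Cox7a1. Cox8a lay at 255 and 284 CPM per kb, against 0.08 and 0.21 for Cox8b, and Cox6b1 at 280 and 154, against 0.54 and 0.80 for Cox6b2, the form of testis. The 3 genes that encode the same c-ring subunit of ATP synthase were led by Atp5g3, at 195 ± 13.2 CPM per kb in liver and 37.4 ± 0.82 in cortex. Atp5g1 (36.3 and 13.9) and Atp5g2 (30.6 and 18.7) followed, with overlapping SDs in liver (4.18 and 3.21). Ndufa4 lay at 155 and 56.8 CPM per kb, against 2.24 and 0.96 for Ndufa4l2, its paralogue of low oxygen.

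Taken as a share of all counts, the mitochondrial DNA members varied between libraries far more than the nuclear members. In liver the 13 genes took 2.76%, 2.98%, 3.51% and 3.97% of the counts of the WT libraries and 5.75%, 5.23%, 4.66% and 3.31% in TMEM106B-/-. The TDP-43Q331K livers had 3.33%, 3.38%, 5.16% and 3.61% and the combined livers 3.56%, 3.81%, 3.48% and 5.20%. Thus 3 of 4 TMEM106B-/- libraries and 1 each of the TDP-43Q331K and combined libraries lay above all WT livers, while the nuclear members took 1.09% to 1.27% in all 16. The log2 ratio of mitochondrial to nuclear member counts within a library does not depend on scaling. It was 1.48 ± 0.15 in WT livers (SD, n = 4), 1.73 ± 0.33 in TDP-43Q331K livers, 1.99 ± 0.36 in TMEM106B-/- livers and 1.68 ± 0.26 in combined livers. The difference of the mean from WT was 0.24, 0.51 and 0.19 in that order, and libraries of each genotype overlapped with WT. Taking the mean of the members' log2(CPM + 0.5), which weights the low genes equally, gave 0.13, 0.27 and 0.05.

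In cortex the mitochondrial DNA members took 3.42% to 3.66% of counts in WT, 3.52% to 3.82% in TDP-43Q331K and 3.53% to 4.11% in TMEM106B-/-. The 5 combined cortices had 4.004%, 3.45%, 5.07%, 4.42% and 3.34%, a wider range that held the highest and the lowest cortex. The log2 ratio was 2.71 ± 0.05 in WT (SD, n = 5), 2.78 ± 0.10 in TDP-43Q331K (n = 6), 2.81 ± 0.10 in TMEM106B-/- (n = 5) and 2.94 ± 0.33 in combined cortices (n = 5). The SD of the combined cortices exceeded the difference from WT of 0.22. Replicates 3 and 4 of the combined genotype had the highest mitochondrial shares and also low nuclear shares, 0.504% and 0.491% against 0.533% to 0.5685% in WT. The 7SK RNA, a nuclear non-coding RNA, was lowest in combined replicate 3 (12054 CPM) and 17636 to 22395 CPM in WT cortices. Combined replicate 5, with the lowest mitochondrial share, was also below WT at 15706 CPM, as were all 5 TMEM106B-/- cortices (14838 to 17147 CPM). The part of this RNA in these shares was not tested. In bulk tissue, fewer cells of a type and less RNA per cell cannot be told apart.

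**Figure D2:**
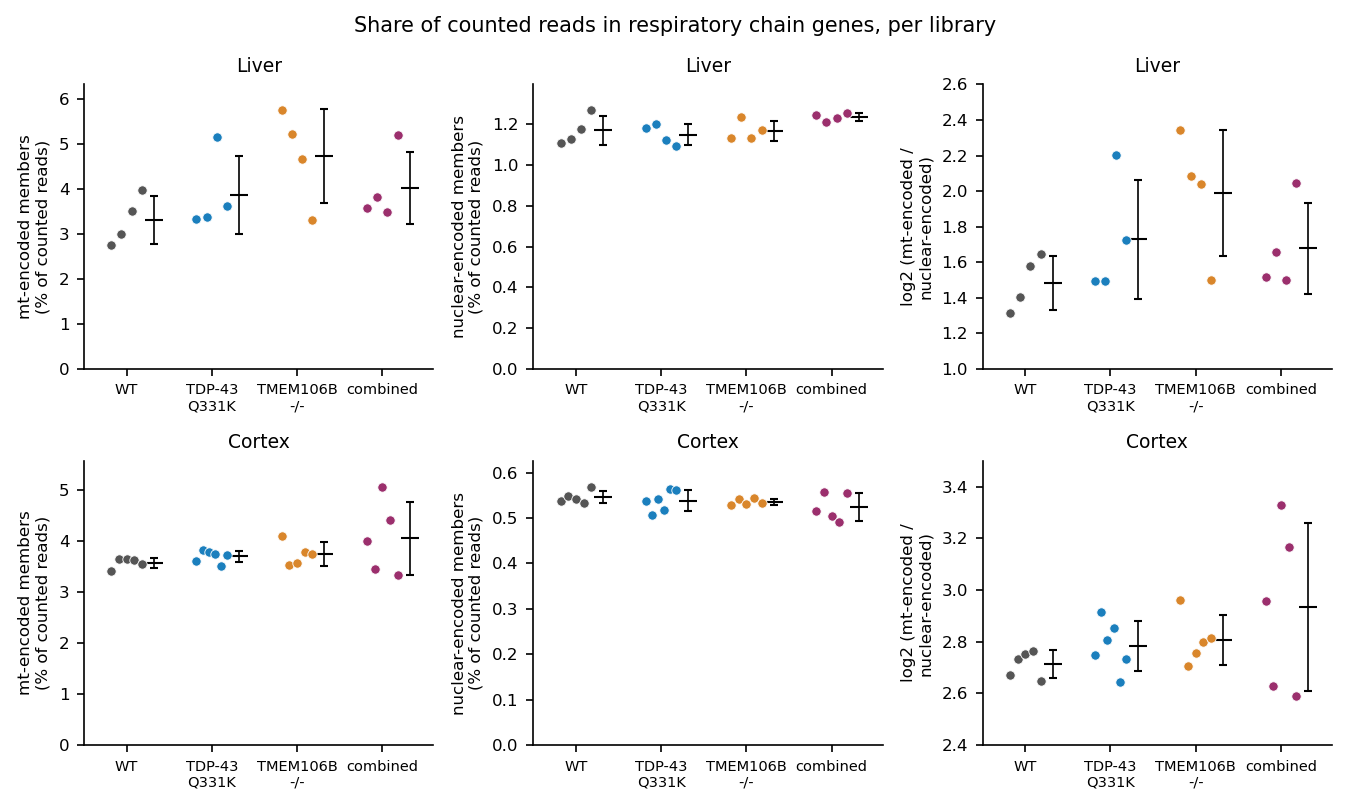
Share of all counts taken by the 13 mitochondrial DNA members and by the 98 nuclear members (percent), and the log2 ratio of their counts, for each library of each genotype in liver and cortex, with the mean and SD. The TMEM106B-/- livers lie at 3.31% to 5.75% against 2.76% to 3.97% in WT, and the combined cortices spread from 3.34% to 5.07%.

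Tested over all genes with edgeR, few respiratory chain genes changed in any comparison, with no more than 3 called members of any complex in a comparison. A low-count filter left 103 members in liver (11 of mitochondrial DNA, 92 nuclear) and 108 in cortex (13 and 95). Not tested in liver were mt-Nd4l, mt-Atp8, Cox4i2, Cox6a2, Cox7b2, Cox8b, Cox8c and the second gene annotated as Atp5o, and in cortex Cox8b, Cox8c and that second Atp5o, which had no counts. Called genes had a Benjamini-Hochberg adjusted p under 0.05 over all 16710 liver or 21248 cortex genes tested. The interaction asks whether the change with both alleles differs from the sum of the changes with each.

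In liver, no member was called between TMEM106B-/- and WT, where 1.05% of all genes tested were called. At an unadjusted p under 0.05 there were 6 mitochondrial DNA and 12 nuclear members of 103, beside 15.1% of all genes, and DESeq2 called 4 members. None was called between TDP-43Q331K and WT (0.263% of all genes), with 1 and 23 at an unadjusted p under 0.05 (15.2% of all genes) and 3 called by DESeq2. Between the combined genotype and WT, where 7.04% of all genes were called, edgeR called 2 of 103 members, below that background, while DESeq2 called 9. The percentages of called genes are those of edgeR, and the DESeq2 counts have no share of all genes beside them here. Against TDP-43Q331K the combined genotype had 1 called member (3.94% of all genes), and 2 with DESeq2. Against TMEM106B-/- (1.04% of all genes) and in the interaction (0.688%) there were 0, with 1 and 4 members, and 2 and 11 members, at an unadjusted p under 0.05. The shares of all genes at that p were 13.5% and 16.3%. DESeq2 called 1 and 2 members there.

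In cortex, 1 of 108 members was called between TMEM106B-/- and WT (5.16% of all genes), 7 between the combined genotype and WT (4.89%) and 1 between the combined genotype and TDP-43Q331K (1.4%). The 7 of 108 lie near the background share. DESeq2 called 2, 13 and 8 members in these comparisons, and its share of all genes is not given beside them. Between TDP-43Q331K and WT, between the combined genotype and TMEM106B-/- and in the interaction, 0% of all genes and 0 members were called by edgeR, and DESeq2 called 0 members in each. At an unadjusted p under 0.05 there were 2 mitochondrial DNA members and 1 nuclear member, 1 and 6, and 0 and 4 in that order, beside 4.88%, 4.96% and 4.57% of all genes. These comparisons share their WT or TDP-43Q331K libraries and are not independent of each other.

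**Figure D3:**
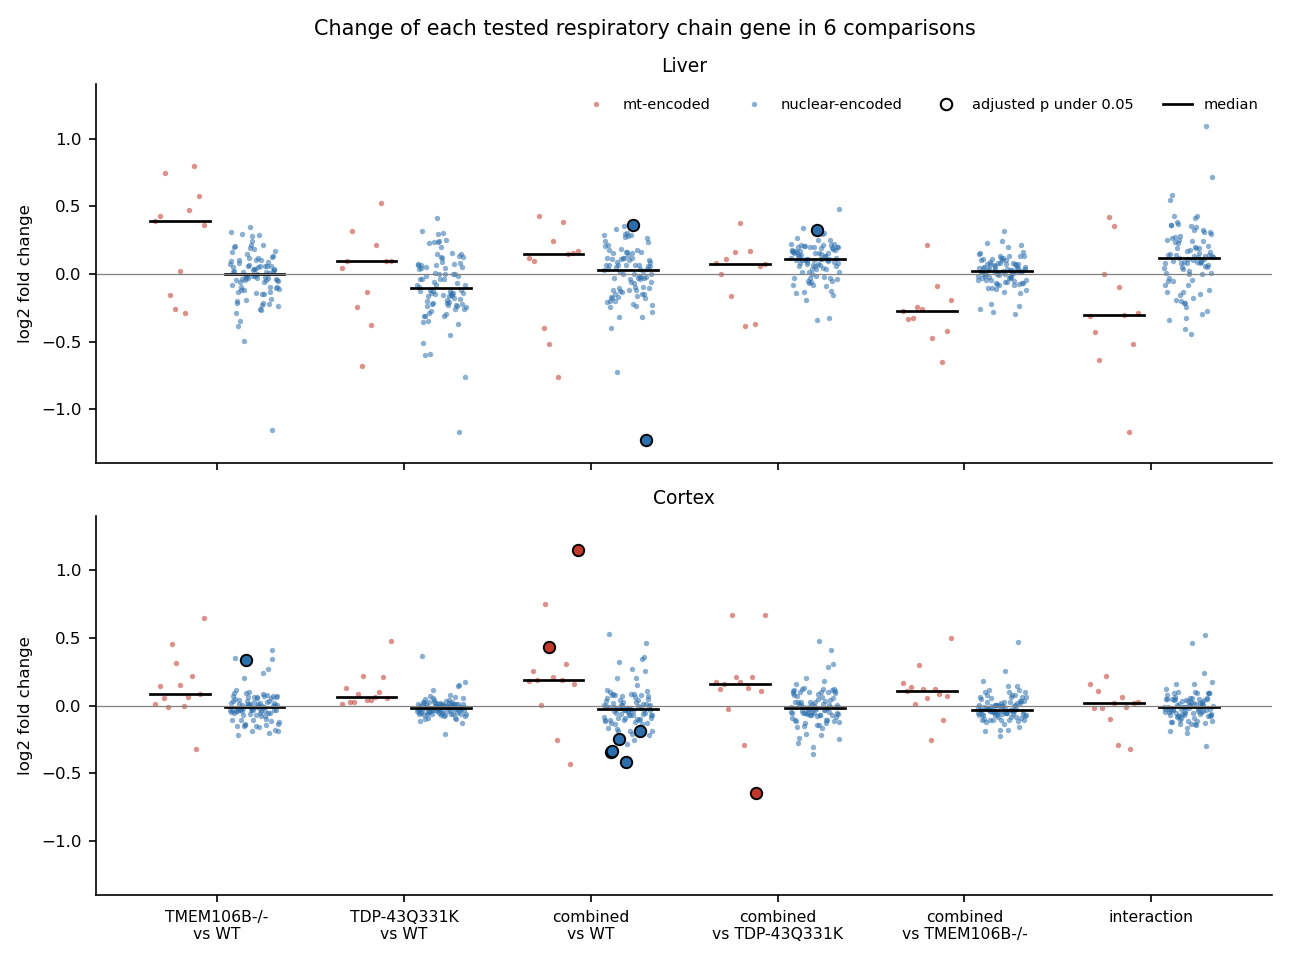
Log2 fold change of every tested respiratory chain gene in the 6 comparisons of each tissue, mitochondrial DNA members in red and nuclear members in blue, with black rings at an adjusted p under 0.05 and bars at the medians. In liver the red median lies at 0.39 for TMEM106B-/- against WT while the blue median lies at 0.00, and in cortex 7 rings lie in the comparison of the combined genotype with WT.

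In liver, mt-Co1, mt-Nd5 and mt-Nd6 had higher means in TMEM106B-/- than in WT, without passing the test over all genes. mt-Co1, the catalytic core of complex IV (chrM:5328-6872, plus strand), was counted at 10442, 10821, 11818 and 14605 CPM in WT and 24666, 22252, 19925 and 13214 CPM in TMEM106B-/-. The first 3 TMEM106B-/- libraries lay above all WT libraries and replicate 4 lay among them. The log2 fold change was 0.75 ± 0.20 (SE, adjusted p = 0.0866). mt-Nd5, a proton-pumping subunit of complex I, had 1729 to 3414 CPM in WT and 5537, 4672, 4167 and 2319 CPM in TMEM106B-/- (log2 fold change 0.80 ± 0.27, adjusted p = 0.179). mt-Nd6, the complex I subunit coded by the other strand, had 38.7 to 55.3 CPM in WT and 95.9, 89.7, 53.1 and 36.4 CPM in TMEM106B-/-, with 2 of 4 libraries above WT (0.58 ± 0.23, adjusted p = 0.248). Without TMEM106B-/- replicate 4 these 3 genes were called, with adjusted p = 0.0174, 0.0495 and 0.0295, and DESeq2 called mt-Co1 with all libraries (0.0145). Leaving out any other of the 8 compared libraries called none of them, with adjusted p up to 0.228, 0.401 and 0.519. TMEM106B-/- replicate 4 had the lowest mitochondrial share of its group and the highest summed acute phase transcripts of all livers, 26611 CPM, against 9972 to 22135 in WT. Summed markers of sinusoidal endothelium were lower in the whole TMEM106B-/- group, at 78.4 to 95.2 CPM against 99.1 to 145 in WT. The part of these in the result was not tested.

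The other counted mitochondrial DNA members lay on the same side in TMEM106B-/- livers: the log2 differences from WT were 0.48 for mt-Nd4, 0.43 for mt-Nd2, 0.39 for mt-Nd1 and 0.36 for mt-Cytb, the subunit of complex III that binds coenzyme Q, none called. The genes near 0, mt-Co2, mt-Co3, mt-Nd3 and mt-Atp6, had differences of -0.16, 0.02, -0.29 and -0.26. With the TDP-43Q331K allele the differences from WT were 0.31 in TDP-43Q331K livers and 0.43 in combined livers for mt-Co1. They were, in the same order, for mt-Nd5 0.52 and 0.15, and for mt-Nd6 0.10 and 0.16. The direction turned for mt-Nd5 without combined replicate 4 (-0.071) and for mt-Nd6 without TDP-43Q331K replicate 3 (-0.0065). The interaction was -1.17 ± 0.39 (adjusted p = 0.158) for mt-Nd5 and -0.64 ± 0.28 (adjusted p = 0.28) for mt-Co1, so a difference of the TMEM106B-/- effect with and without TDP-43Q331K was not detectable by this test. Over the 11 tested genes the median difference from WT was 0.39 in TMEM106B-/-, 0.09 in TDP-43Q331K and 0.15 in combined livers, beside 0.00, -0.01 and -0.03 over all genes.

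Of the nuclear members in liver, Uqcrc2 rose and Cox6b2 fell in the combined genotype against WT, and Ndufs5 rose against TDP-43Q331K. Uqcrc2 (chr7:120635176-120659524, plus strand) encodes a core subunit of complex III. It was counted at 202, 159, 183 and 191 CPM in WT and 223, 234, 244 and 240 CPM in the combined genotype, with no overlap, a 1.28-fold rise (log2 0.36 ± 0.10, adjusted p = 0.0385). Cox6b2 (chr7:4751792-4753094, minus strand) is a trace transcript in liver, at 0.42, 0.76, 0.62 and 0.59 CPM in WT and 0.28, 0.18, 0.31 and 0.24 CPM in the combined genotype (2.34-fold lower, log2 -1.23 ± 0.33, adjusted p = 0.0328). The groups did not overlap. Ndufs5 (chr4:123712710-123718202, minus strand), an accessory subunit of complex I, had 67.8, 65.3, 66.4 and 61.1 CPM in TDP-43Q331K and 77.7, 77.7, 84.8 and 86.9 CPM in the combined genotype (1.26-fold, log2 0.33 ± 0.09, adjusted p = 0.0420). All 3 calls were close to the threshold. Each was lost in 10 or more of 16 other settings. Leaving out any of WT replicates 2 to 4 or combined replicates 1 to 4 ended the calls of Uqcrc2 (adjusted p = 0.0524 to 0.113) and Cox6b2 (0.0541 to 0.106), and leaving out any of the 8 libraries compared ended that of Ndufs5 (0.0617 to 0.125).

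The anchor subunits of the other complexes did not pass the test in the combined liver: the log2 difference from WT was 0.16 for Ndufs1 (complex I), 0.33 for Sdha (complex II), 0.30 for Uqcrc1 (complex III), -0.07 for Cox4i1 (complex IV) and 0.36 for Atp5a1 (complex V). Further genes among the 2 largest differences in each direction of a liver comparison were also not called. Ndufb9, an accessory subunit of complex I, lay at -0.50 ± 0.24 (adjusted p = 0.332) in TMEM106B-/-, Cox6b2 at -1.15 ± 0.33 (0.0997) there and -1.17 ± 0.33 (0.135) in TDP-43Q331K, and Cox7a1 at -0.76 ± 0.21 (0.129) in TDP-43Q331K. Atp5a1, the catalytic-head subunit alpha of ATP synthase, lay at 0.41 ± 0.15 (adjusted p = 0.227) in TDP-43Q331K, and in the combined genotype mt-Nd3 lay at -0.76 ± 0.41 (0.284). Cox7a1 lay at 0.48 ± 0.21 (adjusted p = 0.209) in the combined genotype against TDP-43Q331K. Against TMEM106B-/-, the combined genotype had Ndufs5 at 0.32 ± 0.09 (adjusted p = 0.1) and Ndufa8 at 0.24 ± 0.10 (0.293).

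More nuclear subunits lay below WT than above it in the TDP-43Q331K livers, none past the test. Of the 92 tested, 61 were lower than WT and 31 higher, with a median log2 difference of -0.11 beside -0.01 over all genes. All 13 tested nuclear genes of complex IV were lower, from -1.17 to -0.08 with a median of -0.22, and 6 of them had an unadjusted p under 0.05, beside 15.2% of all genes. Cox4i1, the subunit through which complex IV senses nucleotides, was counted at 608, 703, 600 and 675 CPM in WT and 559, 598, 539 and 529 CPM in TDP-43Q331K, a difference of -0.22 ± 0.09 (adjusted p = 0.283), with all TDP-43Q331K livers below all WT livers. Cox6c had 182, 244, 186 and 236 CPM in WT and 160, 193, 160 and 148 CPM in TDP-43Q331K, with overlapping groups (-0.36 ± 0.12, adjusted p = 0.204). The medians of the other complexes were -0.07 for complex I, 0.06 for complex II, -0.18 for complex III and -0.04 for complex V. In the interaction all 13 complex IV genes lay above 0 (median 0.20), with none called, and that term uses the same TDP-43Q331K and WT libraries.

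The difference in TDP-43Q331K livers went along with transcript length. Across the 92 nuclear members, Spearman's rank correlation between the median annotated transcript length and the log2 difference from WT was 0.69, a description over genes that share the same 8 libraries. Against the same WT livers it was 0.41 in TMEM106B-/- and 0.43 in combined livers, so it was not particular to TDP-43Q331K. The 65 members with transcripts under 1 kb had a median difference of -0.16 and the 27 longer ones 0.07. Among the other protein-coding genes the same split gave -0.05 (n = 2330) and 0.01 (n = 11216). Of the liver counts of all protein-coding genes outside the members, those with transcripts under 1 kb took 28.2% to 29.8% in WT. In TDP-43Q331K they took 27.7% to 29.3%. Complex IV has mostly short nuclear transcripts, and the part of length in its differences was not tested. Summed acute phase transcripts lay at 8808 to 9887 CPM in TDP-43Q331K livers and 9972 to 22135 in WT. The list fixed for astrocytes, whose markers Gfap and Slc1a3 were below 1 CPM in liver, summed to 1894 to 2203 and 978 to 1616 CPM. Neither pair of ranges overlapped, and their part in the differences of the subunits was not tested.

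**Figure D4:**
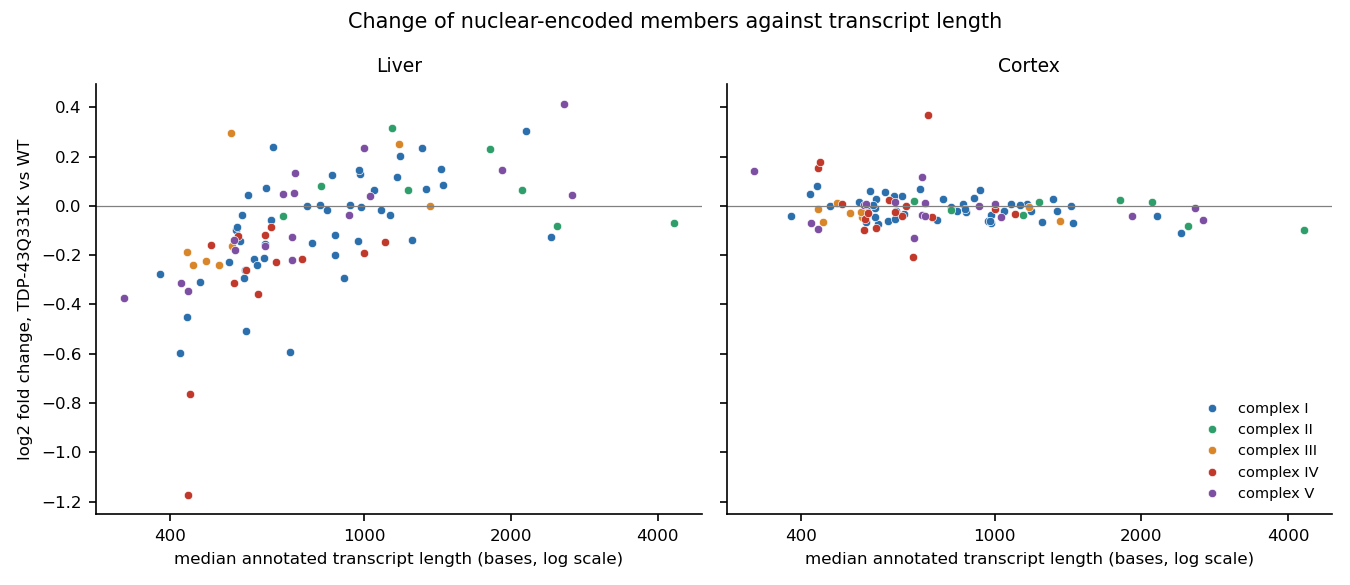
Log2 fold change of TDP-43Q331K against WT for each tested nuclear member (vertical) against its median annotated transcript length in bases (log scale), coloured by complex, for liver and cortex. In liver the 65 members under 1000 bases lie lower (median -0.16) than the 27 longer ones (0.07), and in cortex most members lie close to 0.

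Other mitochondrial gene lists moved in a few members in liver, chosen with earlier results of these data known. In the combined genotype against WT, 4 of 17 tested tricarboxylic acid cycle genes rose and none fell (median log2 difference 0.29): Cs, citrate synthase, by 0.65 ± 0.12 (adjusted p = 0.0033), Suclg2 by 0.65 ± 0.13 (0.0061) and Suclg1 by 0.47 ± 0.12 (0.0219), subunits of succinyl-CoA ligase, and Dlat, of the pyruvate dehydrogenase complex, by 0.85 ± 0.19 (0.0136). The background of that comparison is 7.04%. Of the 15 tested biogenesis regulators, 1 rose, Ppargc1a, the coactivator of mitochondrial gene programmes, by 1.13 ± 0.26 (adjusted p = 0.0148), while the list's median was -0.11. Of 15 genes of mitochondrial DNA transcription and upkeep, 1 rose, the topoisomerase Top1mt (0.58 ± 0.14, adjusted p = 0.0222). Coq7, an enzyme of coenzyme Q synthesis, rose in TMEM106B-/- (0.43 ± 0.09, adjusted p = 0.0319) and in the combined genotype (0.48 ± 0.09, 0.0044), 1 of 13 each time. Slc25a5, an ADP/ATP carrier, rose (0.44 ± 0.11, adjusted p = 0.0179), 1 of 7 carriers, and the tRNA mt-Ti fell (-2.11 ± 0.60, adjusted p = 0.0423), 1 of 8 mitochondrial RNAs outside the rule. None of the 77 mitochondrial ribosome genes, 42 further assembly factors, 19 RNA processing genes and 12 chaperones and proteases tested was called there. Against TDP-43Q331K, Lrpprc, which stabilises mitochondrial messenger RNA, fell (-0.39 ± 0.10, adjusted p = 0.0439) and Ucp2 rose (0.75 ± 0.16, 0.0151), and against TMEM106B-/- Gabpb2, a subunit of nuclear respiratory factor 2, fell (-0.49 ± 0.11, 0.0353). The list fixed for fat cells summed to 13.5 to 33.7 CPM in combined livers and 0.50 to 3.20 in WT. Of its 6 markers, 4 (Adipoq, Plin1, Lep and Ucp1) were below 1 CPM in liver, so the sum does not show fat cells. The part of this sum in these calls was not tested.

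In cortex most mitochondrial DNA members lay above WT, 10 of 13 in TMEM106B-/- and 11 of 13 in the combined genotype, with 0 and 2 called higher. Their median log2 differences were 0.09 and 0.19, beside 0.01 over all genes in each comparison. mt-Nd6, the complex I subunit coded by the light strand (chrM:13552-14070, minus strand), was lower in cortices labelled TMEM106B-/-, with or without TDP-43Q331K. It was counted at 65.2, 69.9, 70.8, 69.0 and 65.3 CPM in WT and 76.9, 73.8, 71.4, 77.9, 83.0 and 89.0 CPM in TDP-43Q331K. The TMEM106B-/- cortices had 57.2, 35.3, 58.5, 57.5 and 63.1 CPM and the combined cortices 44.1, 57.3, 43.9, 43.0 and 63.6 CPM. All 10 libraries with TMEM106B-/- (35.3 to 63.6 CPM) lay below all 11 without it (65.2 to 89.0 CPM), a grouping looked at after the values were seen. mt-Nd6 fell in the combined genotype against TDP-43Q331K, 1.56-fold (log2 -0.64 ± 0.12, adjusted p = 0.0179). The differences from WT did not pass the test, at -0.32 ± 0.13 (adjusted p = 0.163) in TMEM106B-/- and -0.43 ± 0.13 (0.0548) in the combined genotype. Without combined replicate 4 the call was lost (adjusted p = 0.0572).

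The share of mt-Nd6 in the mitochondrial counts rests on the same mt-Nd6 counts and is not separate evidence. As a share of the counts of all 13 mitochondrial DNA members, mt-Nd6 took 0.188% to 0.193% in WT and 0.188% to 0.238% in TDP-43Q331K cortices. It took 0.0996% to 0.168% in TMEM106B-/- and 0.0839% to 0.189% in combined cortices. Combined replicate 5, at 0.189%, lay within the WT range. Combined replicates 3 and 4 had the lowest mt-Nd6 shares (0.0839% and 0.0958%). They also had the highest mitochondrial shares, 5.07% and 4.42% of all counts. In liver the mt-Nd6 share was 0.110% to 0.169% over all 16 libraries. mt-Nd5, which overlaps the end of mt-Nd6 on the other strand, had 3386 to 3985 CPM in WT cortices and 4727, 3576, 6228, 5010 and 3770 CPM in the combined genotype (0.31 ± 0.10, adjusted p = 0.0863). It was called without combined replicate 2 (adjusted p = 0.0237) or replicate 5 (0.0301). Leaving out any other compared library did not call it, with adjusted p up to 0.244. The library kit keeps strand, but the strand setting of the counting is not given in the sources used here, so reads of overlapping genes may not have been told apart.

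Of the 37 genes on mitochondrial DNA, 28 are read from the heavy strand and 9 from the light strand, mt-Nd6 and 8 tRNAs. The light-strand tRNA mt-Tp (chrM:15356-15422, minus strand) also fell. It had 3.12 to 4.59 CPM in the 11 cortices without TMEM106B-/- and 1.99 to 2.69 CPM in the 10 with it. The log2 difference from WT was -0.53 ± 0.11 (adjusted p = 0.00634) in TMEM106B-/- and -0.55 ± 0.11 (0.0106) in the combined genotype, and -0.77 ± 0.11 (0.000825) against TDP-43Q331K. These calls held in every other setting tried. The heavy-strand tRNA mt-Tm (chrM:3845-3913, plus strand) rose against WT, from 2.16 to 3.65 CPM to 6.12 to 12.6 CPM in TMEM106B-/- (1.51 ± 0.30, adjusted p = 0.00646) and 4.32 to 14.5 CPM in the combined genotype (1.44 ± 0.30, 0.0140). Against TDP-43Q331K the combined genotype did not pass the test (0.68 ± 0.28, adjusted p = 0.201), and the 11 cortices without TMEM106B-/- (2.16 to 7.26 CPM) overlapped with the 10 that carry it (4.32 to 14.5 CPM). The light-strand tRNA beside it, mt-Tq, lay at -0.18 ± 0.33 (adjusted p = 0.827) in TMEM106B-/-. Such tRNA counts are low, and full-length tRNAs are poorly captured by RNA libraries not made for small RNAs. In liver mt-Tp lay at 0.26 to 1.02 CPM over all libraries.

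Cell type markers also differed between the genotypes in cortex, some with overlapping ranges. Summed oligodendrocyte markers lay at 2800 to 3181 CPM in WT, 1883 to 3044 in TDP-43Q331K, 994 to 1430 in TMEM106B-/- and 1083 to 2429 in combined cortices. Combined replicate 5, with the highest sum of its group, also had the highest mt-Nd6 of its group, and combined replicate 2, with the lowest sum, had the second highest. Summed meningeal markers lay at 109 to 338 CPM in WT and at 258 to 944 and 405 to 824 CPM in TMEM106B-/- and the combined genotype, and deep layer neuron markers at 208 to 242, 94.2 to 221 and 102 to 203 CPM. Their part in the differences of the members was not tested.

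mt-Nd4l and mt-Atp6 rose in the combined cortices against WT, but both belong to the genes whose sequence is shared with nuclear copies. mt-Nd4l, a small complex I subunit (chrM:9877-10173, plus strand), had 0.63, 0.96, 1.04, 1.12 and 0.71 CPM in WT and 1.97, 1.86, 2.99, 1.82 and 1.304 CPM in the combined genotype, with no overlap (2.22-fold, log2 1.15 ± 0.21, adjusted p = 0.00483). It kept the call in all 18 other settings, on 1025 counts over the 21 cortices. mt-Atp6, the proton channel subunit of ATP synthase (chrM:7927-8607, plus strand), had 8.02 to 8.99 CPM in WT and 11.5, 11.3, 15.6, 10.1 and 8.86 CPM in the combined genotype, overlapping at 1 library (log2 0.43 ± 0.11, adjusted p = 0.0222). When the counts of the nuclear copies were added to their genes, the mt-Atp6 difference was 0.15 (adjusted p = 0.444) and the call was lost, as it was without combined replicate 3 (0.0700), in the fit of the compared groups alone (0.0663) and without the cortices with extreme markers (0.0579). The other mitochondrial DNA members lay between -0.25 (mt-Nd3) and 0.75 (mt-Atp8) in this comparison, none called: mt-Co1 0.19, mt-Co2 0.01, mt-Co3 0.21, mt-Cytb 0.16, mt-Nd1 0.18, mt-Nd2 0.25 and mt-Nd4 0.19. In TDP-43Q331K cortices all 13 lay above WT, by 0.01 to 0.48, with 0 called and 2 at an unadjusted p under 0.05 (4.88% of all genes).

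In the combined cortices 5 nuclear-encoded subunits fell against WT: Cox7c, Atp5e, Atp5j, Uqcrfs1 and Ndufb3. Cox7c (chr13:86044816-86046904, minus strand), an accessory subunit of complex IV, had 91.6, 85.2, 85.7, 85.8 and 97.0 CPM in WT and 67.6, 76.1, 67.1, 65.2 and 76.5 CPM in the combined genotype. The groups did not overlap, and the fall of 1.26-fold (log2 -0.34 ± 0.08, adjusted p = 0.0160) held in all 18 other settings. In TMEM106B-/- Cox7c had 73.3, 61.8, 75.8, 90.2 and 82.4 CPM, overlapping with WT (-0.21 ± 0.08, adjusted p = 0.113). Of its 100-base windows, 16.2% were also found in another annotated gene, mostly a copy. Atp5e (chr2:174461072-174464105, minus strand), the epsilon subunit of ATP synthase, had 22.9 to 28.7 CPM in WT and 19.9, 22.9, 16.2, 16.7 and 22.1 CPM in the combined genotype (-0.34 ± 0.08, adjusted p = 0.0188). Replicates 3 and 4 were lowest, and without replicate 4 the call was lost (adjusted p = 0.0553), as in the fit of the compared groups alone (0.0618). Atp5j (chr16:84827866-84835625, minus strand), a coupling subunit of the ATP synthase stalk, had 28.5 to 31.8 CPM in WT and 23.5, 29.3, 23.0, 22.7 and 27.3 CPM in the combined genotype (-0.25 ± 0.07, adjusted p = 0.0307).

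Uqcrfs1 (chr13:30540308-30545362, minus strand), the Rieske iron-sulfur protein of complex III, had 49.0 to 54.8 CPM in WT and 46.8, 45.7, 42.8, 41.1 and 49.2 CPM in the combined genotype (-0.19 ± 0.05, adjusted p = 0.0392). Ndufb3 (chr1:58586384-58595964, plus strand), an accessory subunit of complex I, had 12.4 to 15.6 CPM in WT and 9.95, 11.7, 7.92, 9.18 and 13.01 CPM in the combined genotype (-0.41 ± 0.12, adjusted p = 0.0460). In both genes every combined cortex lay below the WT mean and the groups overlapped. The calls of Atp5j, Uqcrfs1 and Ndufb3 were lost in 7, 10 and 10 of 18 other settings. Leaving out WT replicate 2, 3 or 4 or combined replicate 1, 3 or 4 ended that of Atp5j (adjusted p = 0.0581 to 0.0842). For Uqcrfs1 it was WT replicate 1, 2, 4 or 5 or combined replicate 2, 3 or 4 (0.0513 to 0.107), and for Ndufb3 any WT replicate or combined replicate 1, 3 or 4 (0.0592 to 0.118). Atp5o (chr16:91925214-91931687, minus strand), the oligomycin sensitivity subunit of the ATP synthase stalk, rose in TMEM106B-/- cortices, from 10.6 to 12.9 CPM in WT to 13.4, 17.3, 16.1, 14.1 and 11.6 CPM (log2 0.34 ± 0.10, adjusted p = 0.0459). Of its windows 27.9% were shared with other genes, and the call was lost without WT replicate 1, 2, 4 or 5 or TMEM106B-/- replicate 1, 2, 3 or 4 (0.0590 to 0.144).

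**Figure D5:**
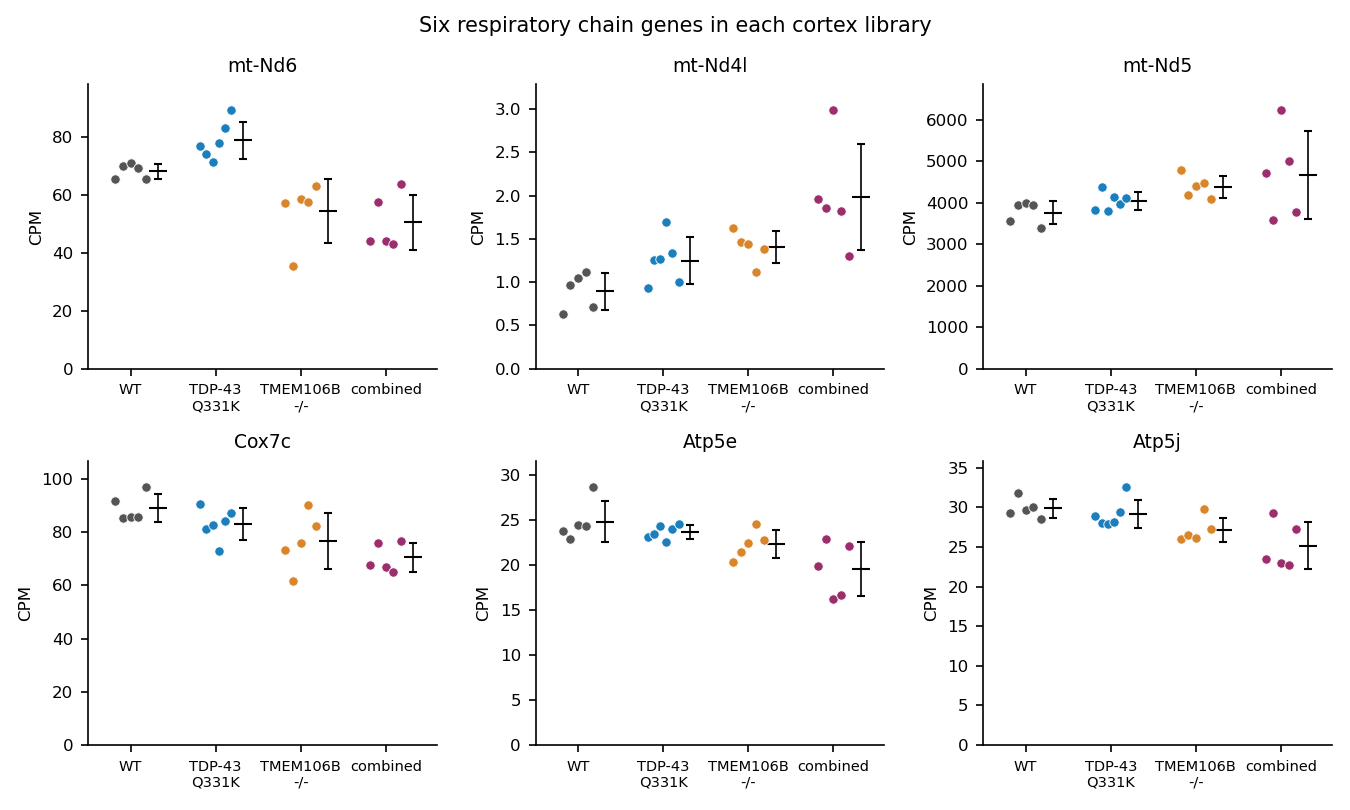
CPM of mt-Nd6, mt-Nd4l, mt-Nd5, Cox7c, Atp5e and Atp5j in each cortex library by genotype (points), with the mean and SD (bars). mt-Nd6 lies at 35.3 to 63.6 CPM in the 10 TMEM106B-/- and combined cortices and 65.2 to 89.0 CPM in the other 11, and Cox7c at 65.2 to 76.5 CPM in combined and 85.2 to 97.0 CPM in WT cortices.

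Most nuclear subunits in the combined cortices lay close to WT. Of 95 tested, 36 were higher and 59 lower, with a median log2 difference of -0.03 beside 0.01 over all genes. The core subunits Ndufs1 (-0.02), Sdha (-0.03), Uqcrc1 (-0.09) and Atp5a1 (-0.03) differed little, and Cox4i1 lay at -0.26 ± 0.09 (adjusted p = 0.11). The complex medians were -0.02 for complex I, -0.02 for II, -0.06 for III, 0.07 for IV and -0.03 for V. Cox6a2, the muscle form seen in cortex, lay at -0.21 ± 0.15 in TDP-43Q331K against WT and Atp5g2 at -0.13 ± 0.06, and Cox4i2 at 0.37 ± 0.25, all with adjusted p = 1. In the interaction Cox7b2 lay at 0.53 ± 0.48, Cox6a2 at 0.46 ± 0.21 and Atp5k at -0.30 ± 0.19, all with adjusted p = 0.999.

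The promoters of Cox7c, Atp5e and Atp5j are shown as examples from the 5 nuclear members called lower in the combined cortices against WT. These were 5 of 95 tested, near the 4.89% of all genes called there in either direction, so the calls do not set these genes apart as a group. The sequences run from 250 bases before to 50 after the annotated start (RefSeq, GRCm38.p6), with a match to a searched motif in capitals. Cox7c (chr13:86046746-86047045, minus strand) held none of the motifs, and neither did Uqcrfs1 and Ndufb3, which also fell and are not shown. Atp5e (chr2:174464052-174464351, minus strand) held the SP1 letters on the opposite strand. Of the starts annotated for Atp5j, the one at chr16:84834927-84835226 (minus strand) held the YY1 letters, and the one at chr16:84835576-84835875 (minus strand), not shown, held none of the motifs.
Cox7c: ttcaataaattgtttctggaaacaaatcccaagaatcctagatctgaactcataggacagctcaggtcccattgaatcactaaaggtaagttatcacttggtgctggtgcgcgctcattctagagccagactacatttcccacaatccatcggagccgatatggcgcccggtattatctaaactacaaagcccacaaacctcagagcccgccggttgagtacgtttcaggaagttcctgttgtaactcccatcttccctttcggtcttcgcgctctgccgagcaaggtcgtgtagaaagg
Atp5e: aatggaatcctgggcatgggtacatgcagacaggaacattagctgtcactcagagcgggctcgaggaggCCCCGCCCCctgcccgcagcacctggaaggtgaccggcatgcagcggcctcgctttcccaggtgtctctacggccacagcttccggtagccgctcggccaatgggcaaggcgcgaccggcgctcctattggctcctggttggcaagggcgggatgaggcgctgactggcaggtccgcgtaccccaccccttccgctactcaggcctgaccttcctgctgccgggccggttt
Atp5j: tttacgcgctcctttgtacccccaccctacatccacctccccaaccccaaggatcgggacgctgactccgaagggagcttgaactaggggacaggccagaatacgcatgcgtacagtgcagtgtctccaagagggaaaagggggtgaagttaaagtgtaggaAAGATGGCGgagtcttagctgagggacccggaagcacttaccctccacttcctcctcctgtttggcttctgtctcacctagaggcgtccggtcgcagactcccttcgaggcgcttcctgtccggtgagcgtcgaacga
The motifs searched on both strands were GCGCATGCG (NRF1), CCGGAAGT (ETS factors, such as GABPA), AAGATGGCG (YY1) and GGGGCGGGG (SP1), none of which contains another. Of the 98 nuclear members, 79 were in the promoter table. NRF1, a known regulator of respiratory genes, had its letters in 12.7% of them and in 1.95% of all 27025 genes in the table. The shares were 10.1% and 1.64% for YY1, 6.33% and 4.31% for ETS, and 13.9% and 12.9% for SP1. The NRF1 letters were found in Uqcrc1, Ndufa8, Cox6a1, Atp5g2 and 6 others, and the YY1 letters in Ndufs4, Ndufs7 and 6 others, of which Atp5j was called. A match describes these letters and not the binding of a factor.

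The further mitochondrial lists in cortex held few calls, in both directions. In the combined genotype against WT (4.89% of all genes), 2 of 77 mitochondrial ribosome genes rose, Mrpl22 (0.23 ± 0.06, adjusted p = 0.0354) and Mrpl58 (0.15 ± 0.04, 0.0376), and 2 fell, Mrps31 (-0.22 ± 0.06, 0.0454) and Mrps26 (-0.24 ± 0.07, 0.0464). Of 17 tricarboxylic acid cycle genes Idh3g rose (0.16 ± 0.05, adjusted p = 0.0491) and Dld fell (-0.23 ± 0.06, 0.0316), and of 13 coenzyme Q genes Coq8b rose (0.29 ± 0.06, 0.0102) and Coq2 fell (-0.18 ± 0.05, 0.0299). Ucp2, an inner membrane carrier, rose (0.76 ± 0.19, adjusted p = 0.0280), the outer membrane channel Vdac3 fell (-0.23 ± 0.05, 0.0126), and so did Hspd1, the matrix chaperonin (-0.24 ± 0.06, 0.0273). None of 42 assembly factors and carriers, 16 biogenesis regulators, 15 transcription and upkeep genes and 19 RNA processing genes was called there. In TMEM106B-/- against WT (5.16%), Coq8b rose (0.25 ± 0.06, adjusted p = 0.0148), and Vdac3 (-0.19 ± 0.05, 0.0253), Mrps9 (-0.19 ± 0.05, 0.0365) and Cycs, cytochrome c (-0.23 ± 0.07, 0.0419), fell. Against TDP-43Q331K the combined genotype had higher Mrpl22 (0.30 ± 0.06, adjusted p = 0.0164) and lower Coq2 (-0.21 ± 0.05, 0.0251) and Higd1a (-0.27 ± 0.07, 0.0407).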

How the data were processed

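RNA of liver and brain cortex of 10-month-old mice was sequenced from 700 ng of total RNA per library with the NEBNext Ultra II Directional kit, per the labels. Per the submitters' processing notes, reads were trimmed with Trim Galore and cutadapt, checked with FastQC and processed on GRCm38 (mm10). Not given in the sources used here are the aligner, the counting program and its strand setting. Deposited values are raw counts per Ensembl gene. All 55536 identifiers of each table matched GENCODE M21. The cortex table had 1 column that matched no sample, which was not used here.

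A model per tissue held all 4 genotypes: edgeR 4.0.16 in R 4.3.3, filterByExpr (minimum count 10, minimum total 15), TMM scaling and the robust quasi-likelihood F-test, with Benjamini-Hochberg adjustment over all genes tested and a threshold of 0.05. The test was checked on simulated counts. CPM are counts per 1 M of the TMM-scaled library, and CPM per kb divides by exonic length. Common biological variation was 0.235 in liver and 0.103 in cortex, so smaller changes could be called in cortex. Alternatives were DESeq2 1.42.0, no filter on low counts, a replicate block, fits of the compared groups alone and leaving out each library. Leaving out the libraries with extreme acute phase or tissue markers, and adding the counts of nuclear copies to their mitochondrial gene, were chosen after seeing the data. Replicate numbers did not pair libraries of a tissue (mean correlation of same-numbered deviations -0.007 in liver and -0.017 in cortex). Members and gene lists were chosen with earlier results of these data known. Named genes were all mitochondrial DNA members, 1 core subunit per complex, every called member, the 2 largest changes in each direction of each comparison, the subunit isoforms and called list genes; the light-strand tRNA mt-Tq and Cox6c were added after the values were seen. Windows, identities and motifs were computed with Python 3.11.15 from GRCm38 and RefSeq tables.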

Additional observations from a re-analysis of the deposited data

Results flagged for a closer look

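In 4 of 72 groups of libraries checked, 1 library stood apart from the others of its group by more than Dixon's 95% limit, which chance alone passes in about 1 of 20 groups. In liver, TDP-43Q331K replicate 3 had a mitochondrial DNA share of 5.16%, against 3.33% to 3.61% in the others. In cortex, WT replicate 5 had 28.7 CPM of Atp5e against 22.9 to 24.5, TDP-43Q331K replicate 6 had 32.6 CPM of Atp5j against 27.9 to 29.4, and TMEM106B-/- replicate 2 had 35.3 CPM of mt-Nd6 against 57.2 to 63.1.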

How the results depend on the processing

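The number of called members moved with the method, and the share of all genes called by each alternative is not given beside it. With DESeq2 the liver comparisons had 4, 3, 9, 2, 1 and 2 called members (TMEM106B-/-, TDP-43Q331K and combined against WT, combined against TDP-43Q331K and against TMEM106B-/-, interaction), and the cortex had 2 for TMEM106B-/- against WT, 13 for combined against WT and 8 for combined against TDP-43Q331K. Without the filter on low counts, and with a replicate block, liver had 0 for combined against WT and 0 against TDP-43Q331K. With the replicate block cortex had 8 for combined against WT and 0 against TDP-43Q331K (mt-Nd6 adjusted p = 0.0501), and the numbers do not pair these libraries. In fits of the compared groups alone, liver had 1 for combined against WT, and cortex 4 for TMEM106B-/- against WT and 4 for combined against WT. Without the libraries with extreme markers, liver had 0 for combined against WT and cortex 2 for combined against TDP-43Q331K, and with nuclear copies added the latter was 2. Leaving out 1 library gave 0 to 3 in liver for TMEM106B-/- and for combined against WT and 0 to 0 for combined against TDP-43Q331K. In cortex it gave 0 to 2 for TMEM106B-/-, 3 to 16 for combined against WT and 0 to 11 for combined against TDP-43Q331K, the highest counts without combined replicate 5 and the 0 of the last without combined replicate 4. In the other comparisons it gave 0. In liver, mt-Nd6 in TDP-43Q331K turned to -0.0065 without TDP-43Q331K replicate 3, and mt-Nd5 in the combined genotype to -0.071 without combined replicate 4, and leaving out other libraries gave up to 0.20 and 0.37. In cortex mt-Nd6 passed for combined against WT with DESeq2 (adjusted p = 0.0107), with the compared groups alone (0.0382) and without combined replicate 5 (0.0149). It did not pass when any other compared library was left out, with adjusted p up to 0.132. Differences of the mitochondrial to nuclear log2 ratio from WT kept their direction in every alternative run: leaving out 1 library gave 0.09 to 0.32 in TDP-43Q331K, 0.39 to 0.67 in TMEM106B-/- and 0.07 to 0.25 in combined livers, and 0.04 to 0.10, 0.05 to 0.12 and 0.12 to 0.31 in cortices. The mean of the members' log2(CPM + 0.5) gave 0.13, 0.27 and 0.05 in livers and 0.11, 0.11 and 0.20 in cortices. The causes were not tested.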
